A study of Mus musculus with 40 samples.

Results

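H3K27me3 was compared between K27M and control oligodendrocyte precursor cell (OPC) cultures of the telencephalon, the tissue that the sample labels call cortex. The members were chosen by tissue, mark and genotype from the labels, which gave 6 of the 20 libraries with peak lists, namely K27M and Control from cultures 59, 60 and 61. ChIP-seq, which sequences the DNA bound by an antibody, was done for H3K27me3 and H3K4me3 in OPCs of the telencephalon and brainstem before differentiation. The 6 H3K4me3 lists of the same telencephalon cultures and the 4 H3K27me3 lists of the brainstem served for comparison.

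K27M cells carried the lysine-to-methionine substitution in histone H3.3 as a conditional knock-in that Cre recombinase switches on. The labels name the litters AMGFAP-Cre;K27M and the methods name the driver hGFAP-Cre, a transgene active in neural stem and progenitor cells and therefore in their neuronal and glial progeny. The labels do not spell out the alleles of the Control animals. The methods, in the account of another assay, describe littermate controls as having the stop cassette before the knock-in and no Cre. The Control animals here came from the same litters and were pooled, as the K27M animals were, by region and genotype. Each culture is thus a pool of mice and not 1 animal. Both genotypes were on an FVB background and were taken at postnatal day 5 to 7, with the hippocampus, corpus callosum and cortex making up the dorsal telencephalon tissue. Both were panned on PDGFRa after depletion of microglia and endothelial cells on BSL1, and were grown in the same proliferation medium with PDGF. Drosophila chromatin was added as a spike-in, but it did not enter the peak calls.

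H3K27me3 is deposited by Polycomb repressive complex 2 (PRC2), whose catalytic subunit is EZH2, and marks genes that are kept silent. In mammalian cells PRC2 is recruited mainly to CpG-rich DNA, such as the promoters of unexpressed developmental regulators, and the mark then spreads to the surrounding chromatin. Histone H3 with the K27M substitution inhibits PRC2 in a dominant way. OPCs divide, express the PDGF receptor alpha and give rise to the myelinating oligodendrocytes.

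To show the kind of DNA in which the mark was kept, lost or gained, 250 bases are given for 5 stretches and 2 promoters. They were read from the RefSeq reference (GRCm38.p6, the assembly also named mm10), in lower case with each CpG in capitals. The first 5 windows lie nearest to the middle of the longest stretches of each class, outside exons and masked repeats, on the plus strand. The first 2 are from stretches under a peak in all 6 libraries, chr15:102983244-102983493 within *Hoxc9* and chr11:96314761-96315010 between *Hoxb5* and *Hoxb4*. The next 2 are from stretches under a peak in the 3 Control and no K27M library, chr7:62361451-62361700 between *Ndn* and *Magel2*, and chr2:178393108-178393357 in an intron of *Sycp2*. The fifth is from the longest stretch under a peak in the 3 K27M and no Control library, chr13:78190513-78190762 in an intron of *Nr2f1*.
HoxC, retained: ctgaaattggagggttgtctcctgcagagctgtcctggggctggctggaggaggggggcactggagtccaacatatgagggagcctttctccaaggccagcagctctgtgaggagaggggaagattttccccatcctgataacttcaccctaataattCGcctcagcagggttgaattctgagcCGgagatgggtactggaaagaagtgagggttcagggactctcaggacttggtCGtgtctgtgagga
HoxB, retained: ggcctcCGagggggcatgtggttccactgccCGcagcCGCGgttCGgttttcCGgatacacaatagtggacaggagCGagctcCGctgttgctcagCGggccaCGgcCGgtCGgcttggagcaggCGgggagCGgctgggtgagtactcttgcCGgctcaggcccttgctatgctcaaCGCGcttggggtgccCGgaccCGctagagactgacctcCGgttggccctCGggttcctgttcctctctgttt
Near Ndn, lost: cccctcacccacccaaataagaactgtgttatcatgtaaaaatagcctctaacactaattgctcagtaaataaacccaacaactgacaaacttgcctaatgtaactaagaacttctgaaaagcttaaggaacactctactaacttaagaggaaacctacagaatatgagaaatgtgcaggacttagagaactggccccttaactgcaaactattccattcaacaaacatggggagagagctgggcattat
Sycp2, lost: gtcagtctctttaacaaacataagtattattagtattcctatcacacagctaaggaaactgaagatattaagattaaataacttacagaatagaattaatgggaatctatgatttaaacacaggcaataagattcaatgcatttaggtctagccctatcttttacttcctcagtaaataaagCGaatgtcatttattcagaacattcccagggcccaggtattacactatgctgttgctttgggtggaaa
Nr2f1, gained: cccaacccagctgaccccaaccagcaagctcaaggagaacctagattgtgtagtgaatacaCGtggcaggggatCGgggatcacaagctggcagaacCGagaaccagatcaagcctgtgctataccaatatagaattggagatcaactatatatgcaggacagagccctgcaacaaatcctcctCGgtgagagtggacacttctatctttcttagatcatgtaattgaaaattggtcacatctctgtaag

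The promoter sequences are the 250 bases upstream of a start, read on the strand of the gene, for *Nkx6-2* (chr7:139582798-139583047, minus strand), which kept the mark, and *Magel2* (chr7:62376729-62376978, plus strand), which lost it.
Nkx6-2, retained: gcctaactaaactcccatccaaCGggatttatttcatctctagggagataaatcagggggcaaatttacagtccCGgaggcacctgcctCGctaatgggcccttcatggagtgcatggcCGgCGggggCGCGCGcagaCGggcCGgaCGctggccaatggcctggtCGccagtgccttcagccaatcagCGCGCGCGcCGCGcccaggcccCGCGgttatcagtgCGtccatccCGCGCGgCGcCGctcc
Magel2, lost: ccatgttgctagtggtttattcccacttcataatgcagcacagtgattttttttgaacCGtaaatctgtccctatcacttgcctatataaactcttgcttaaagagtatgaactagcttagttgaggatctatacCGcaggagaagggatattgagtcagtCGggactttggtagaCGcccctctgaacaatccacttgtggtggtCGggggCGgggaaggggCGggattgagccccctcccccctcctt

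The *Nkx6-2* window held 26 CpG and the *Magel2* window 7. Among 31396 autosomal RefSeq promoters, whose median over the same 250 bases was 6, 9.89% held at least 26 and 46.8% held at least 7. The windows from the HoxC and HoxB stretches held 3 and 21 CpG, those from the lost stretches 0 and 1, and that of *Nr2f1* 4. A CpG is a description of the sequence and not a binding site.

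The study's own list of reads gave 118024943, 52387642 and 75505404 for H3K27me3 in Control 59, 60 and 61, and 99731597, 68432767 and 36203038 in the K27M libraries, with 20.9% to 26.1% duplicates. Control 59 was the deepest of the 6 libraries but had the fewest peaks of the controls, 12526 on autosomes against 33571 and 51230, so it stands apart and limits every class that asks for a peak in all 3 controls. The K27M libraries had 3941, 7639 and 6427 autosomal peaks. The X chromosome was left out because the length under peaks on it differed strongly within each genotype. Where a list has no peak, H3K27me3 may still be present below the level that MACS2 calls. *Pdgfra*, *Cspg4*, *Olig1*, *Olig2*, *Sox10* and *Ptprz1*, which mark OPCs, had a promoter H3K4me3 peak and no H3K27me3 peak in all 6 libraries of each mark. *Nkx2-2*, also listed as an OPC marker, had H3K4me3 in all 6 and an H3K27me3 peak in 2 libraries of each genotype. The microglial genes *Aif1*, *Cx3cr1* and *Csf1r* and the endothelial genes *Pecam1*, *Cdh5* and *Tek* had no promoter H3K4me3 peak. Other listed markers had one: microglial *P2ry12* in 2 Control and 3 K27M libraries, and endothelial *Flt1* in 3 and 3 and *Cldn5* in 2 and 1. Of 10 microglial genes 0 or 1 had one in each library, of 10 endothelial genes 3 to 6, of 12 astrocyte genes 6 to 11 and of 10 neuronal genes 8 or 9.

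K27M cultures had less of the autosomal genome under H3K27me3 peaks in each of the 3 pairs, and what remained lay in longer blocks. Peaks covered 26.2, 71.4 and 106 Mb in Control 59, 60 and 61 and 12.5, 23.0 and 19.3 Mb in K27M. The 2 genotypes did not overlap. The log2 ratio of K27M to Control was −1.07, −1.64 and −2.45, with a mean of −1.72 (SD 0.70, n = 3 pairs), a mean fold of 0.304. The length-weighted median of merged peaks (N50), the length at which longer peaks hold 50% of the covered base pairs, was 4142, 4490 and 4286 bp in Control and 7724, 6574 and 6377 bp in K27M. This is a mean difference of 0.67 on the log2 scale (SD 0.20, n = 3 pairs), or 1.60-fold. Peaks of 10 kb or longer held 26.9%, 27.4% and 26.7% of the covered length in Control and 44.6%, 39.9% and 38.7% in K27M. With peaks of fold enrichment 3 or more the log2 difference in this length was −0.0064, and with −log10 q of at least 3 it was 0.30. An exact permutation test that flips the sign of each of the 3 pair differences (two-sided) gave p = 0.25 for both measures (0.333 after Benjamini-Hochberg adjustment over the 12 tests made). With 3 pairs 0.25 is the smallest possible p, so no comparison could reach significance, and p-values cover only the spread between these cultures.

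**Figure D1:**
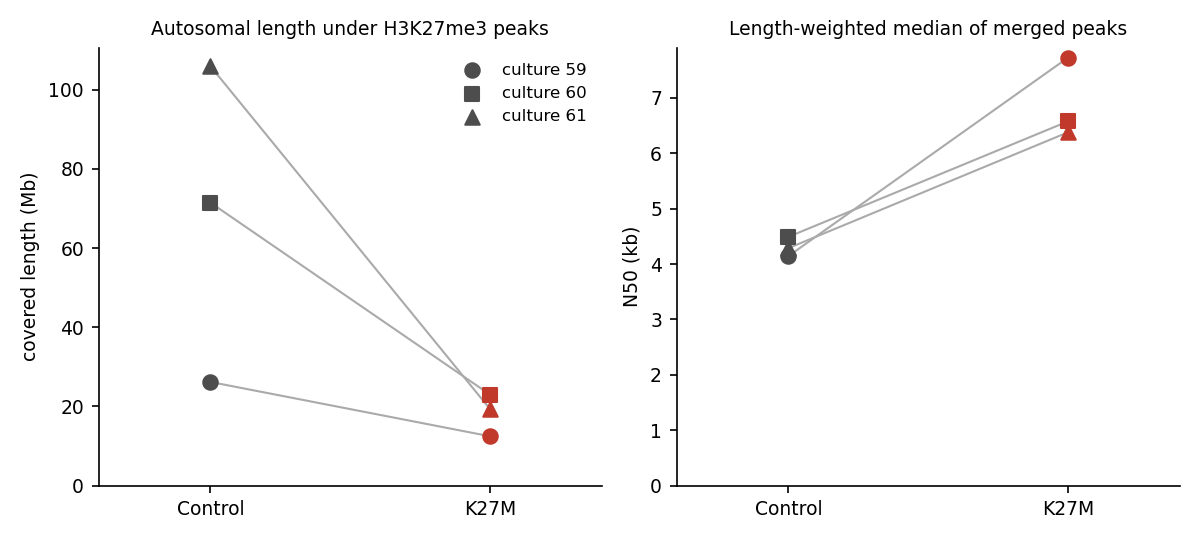
Autosomal length under H3K27me3 peaks in Mb (left) and length-weighted median of merged peaks in kb (right), with each point 1 library and lines joining the Control and K27M libraries of a culture. Covered length is lower in K27M in all 3 pairs (12.5 to 23.0 Mb against 26.2 to 106 Mb) and the N50 is higher (6377 to 7724 bp against 4142 to 4490 bp).

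Most of what remained in K27M cells was marked in the matched Control too. The share of the Control's covered base pairs that was under a peak of the matched K27M library was 44.1%, 31.1% and 17.5% in pairs 59, 60 and 61. The other 2 controls covered on average 92.7%, 57.0% and 38.2% of the same base pairs. The mean difference was −31.7 percentage points (SD 14.8, n = 3 pairs, exact p = 0.25, adjusted 0.333). A K27M list cannot cover more of the Control than its own length allows. That length was 12.5, 23.0 and 19.3 Mb against 26.2, 71.4 and 106 Mb in Control. This difference therefore cannot be told apart from that in covered length and does not speak to position. Conversely, 7.31%, 3.33% and 3.94% of the K27M base pairs were outside the matched Control. When the other controls were cut down to the K27M covered length by keeping their strongest peaks, 28.8%, 8.78% and 6.31% of their base pairs were outside it. The K27M-only share was lower than this control-to-control share in all 3 pairs, with a mean difference of −9.77 percentage points (SD 10.3, n = 3 pairs, exact p = 0.25, adjusted 0.333). Without culture 59 it was −4.95, and with the X chromosome it was −5.05 and held in 2 of 3 pairs.

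Comparing lists of equal length asks whether the remaining mark sat where the control mark was strongest. When the matched Control was cut to the K27M length by its strongest peaks, 67.5%, 70.0% and 61.1% of the K27M base pairs lay inside it, against 53.5%, 65.1% and 63.0% for the other controls. The difference was 14.0, 4.94 and −1.87 percentage points (mean 5.70, SD 7.97, n = 3 pairs, exact p = 0.5, adjusted 0.5), so the pairs went both ways and the mean was smaller than its SD. Without pair 59 the mean was −9.10, and with the X chromosome −4.15. A p that misses the threshold does not show that the positions kept in K27M and those shared with another control were alike.

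Of the base pairs under a peak in all 3 controls, 10.9 Mb (47.1%) were under a peak in all 3 K27M libraries and 6.57 Mb in none. In contrast, 0.040 Mb was under a peak in all 3 K27M libraries and no Control. The retained length formed 3451 stretches with a median of 1327 bp, the lost length 9036 stretches with a median of 488 bp, and the gained length 37 stretches. Lost stretches were thus shorter and more numerous than retained ones.

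Strong control peaks were kept and weak ones were not. Ordered by fold enrichment and cut into 5 classes of equal covered length, the weakest to strongest peaks of Control 59 were kept at 23.3%, 19.5%, 32.8%, 60.7% and 84.5%. For Control 60 the shares were 1.83%, 5.21%, 19.9%, 48.6% and 79.9%, and for Control 61 0.72%, 1.42%, 4.99%, 21.9% and 58.6%. The strongest class exceeded the weakest by 65.7 percentage points (SD 10.8, n = 3 pairs, exact p = 0.25, adjusted 0.333). A similar slope held between controls. Cut to the K27M length, the other controls covered 78.2%, 76.5% and 60.1% of the strongest class and 16.6%, 3.86% and 1.05% of the weakest.

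CpG-rich bins kept the mark most. Of 1 kb bins with a control peak over at least 500 bp and 40 or more CpG, 88.5%, 71.2% and 64.8% were kept in pairs 59, 60 and 61, against 30.2%, 24.9% and 11.3% of bins with 0 to 9 CpG. The mean difference was 52.7 percentage points (SD 6.08, n = 3 pairs, exact p = 0.25, adjusted 0.333). Here K27M differed from a second control. The other controls, cut to the K27M length, covered 80.1% and 67.5%, 37.7% and 55.9%, and 32.5% and 57.8% of the same CpG-rich bins, each below the K27M value of its pair. Over all bins the kept shares of 45.0%, 31.6% and 17.7% stood beside 34.9%, 30.2% and 17.6% for the controls so cut. This comparison with controls cut to the K27M length was added after the data had been seen and has no test of its own.

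**Figure D2:**
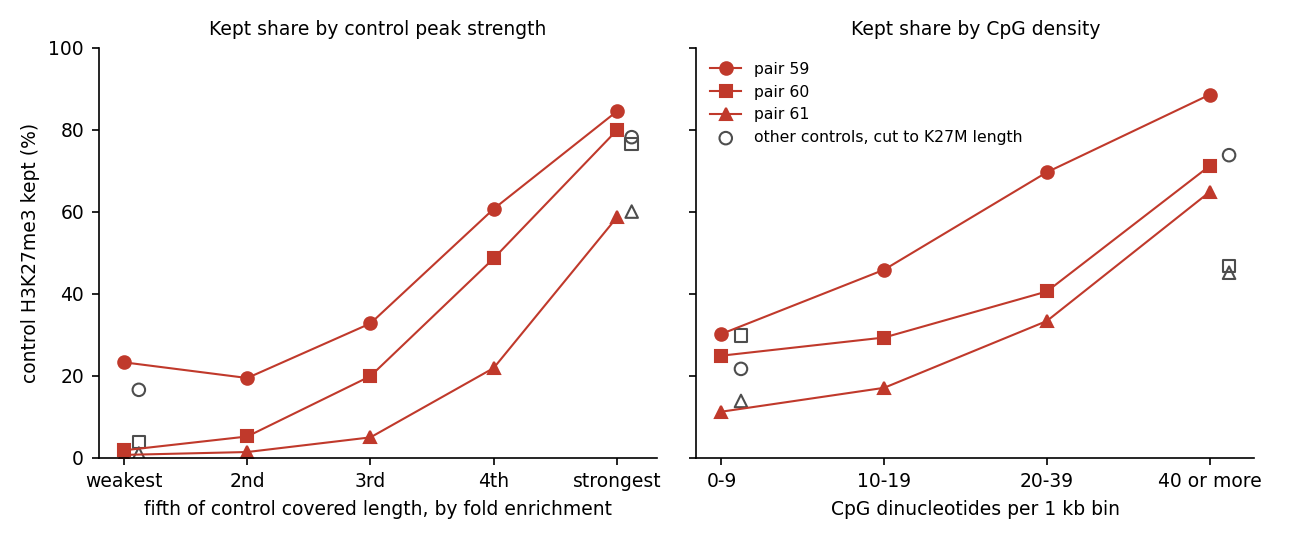
Share of Control H3K27me3 kept in the matched K27M library (filled symbols, 1 line a pair) by strength of the control peaks (left) and by CpG per 1 kb bin (right); open symbols, set slightly to the right, give the mean of the other 2 controls cut to the K27M length, at the end classes. In the strongest class K27M (84.5%, 79.9%, 58.6%) lies near the controls (78.2%, 76.5%, 60.1%), while in bins with 40 or more CpG it lies above them (88.5%, 71.2%, 64.8% against 73.8%, 46.8%, 45.1%).

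Bins near a gene start were also kept more often than distant ones. Within 5 kb of a protein-coding start 63.4%, 43.1% and 28.3% of control bins were kept, and over 50 kb away 29.5%, 22.5% and 11.0% (mean difference 23.9 percentage points, SD 8.76, n = 3 pairs, exact p = 0.25, adjusted 0.333). The controls cut to the K27M length covered 54.1%, 35.8% and 24.8% of the near bins and 11.8%, 24.6% and 12.4% of the distant ones. H3K4me3, the mark of active and poised promoters, did not go with a higher kept share once CpG density was held equal. Bins with a control H3K4me3 peak were kept at 65.7%, 62.1% and 52.3% and those without at 81.6%, 65.9% and 60.9%, standardised on the 4 CpG classes. The mean difference was −9.43 percentage points (SD 6.11, n = 3 pairs, exact p = 0.25, adjusted 0.333). It was 30.2 without the standardisation and 1.11 when a bin counted as covered at any overlap, so its sign depended on the processing. In bins with 40 or more CpG, K27M kept on average 70.6% with H3K4me3 and 81.4% without. The other controls at full length covered 78.2% and 88.2% of these. With 20 to 39 CpG the shares were 39.7% and 47.6% in K27M and 69.9% and 70.0% in the other controls.

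More long control domains were covered in part in K27M than were without a K27M peak, in each pair, but the shares differed widely between pairs. Control 59, 60 and 61 had 347, 959 and 1392 merged peaks of 10 kb or longer. Of these, 186, 191 and 105 were covered to at least 90% in the matched K27M library, 151, 726 and 939 were covered in part and 10, 42 and 348 had no K27M peak. Inside the partly covered domains the bins that were kept held 13.6, 17.7 and 19.1 CpG per kb and the bins that were lost held 9.24, 10.9 and 10.8. The kept bins had the higher density in 71.2%, 75.9% and 75.0% of domains with both kinds of bin. When each such domain was cut into 3 equal segments, the central one was covered to 79.2%, 74.8% and 58.4% and the outer ones to 57.6%, 51.4% and 38.7%. These values carry no test, since the bins of a library are not replicates, and they were not set beside a second control.

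The longest retained stretches were the *Hox* clusters, which encode the homeodomain factors of the anterior-posterior axis. The HoxC stretch (chr15:102894635-103072700, 178066 bp) had peaks of fold enrichment 5.75, 17.2 and 11.9 over input in Control 59, 60 and 61, and of 10.7, 26.5 and 29.5 in K27M. The HoxB stretch (chr11:96249468-96379773, 130306 bp) had 4.64, 16.0 and 8.24 in Control and 9.51, 27.2 and 30.3 in K27M. In both clusters the K27M value was the higher in each pair. The third, HoxD (chr2:74641456-74770778), was 129323 bp long.

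The longest lost stretches were CpG-poor. The first (chr7:62353575-62367722, 14148 bp) lies between the imprinted genes *Ndn* and *Magel2* and had peaks of fold enrichment 3.36, 3.98 and 4.97 in Control 59, 60 and 61. Brainstem Control 59 and 61 covered 16.9% and 97.1% of it, and neither brainstem K27M library had a peak in it. The second (chr2:178386583-178399953, 13371 bp) lies in *Sycp2*, which encodes a protein of the meiotic synaptonemal complex, with fold enrichments of 3.81, 3.82 and 5.14. The third (chr12:72890891-72901656, 10766 bp) lies in *4930447C04Rik*, with 4.59, 5.26 and 8.13. There the brainstem K27M libraries still covered 94.8% and 28.9%. Over the 12 longest stretches of each class, CpG density ran from 2.57 to 11.9 per kb (median 5.78) in lost and from 14.0 to 27.5 (median 20.3) in retained stretches, beside 8.28 for all autosomal bins. The longest lost stretches included some that flank *Hox* clusters, at chr15:102863149-102872080 (8932 bp) beside HoxC and chr2:74793059-74802614 (9556 bp) beside HoxD, chosen here after their values were seen.

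At promoters, taken from 2000 bp upstream to 1000 bp downstream of any transcript start, genes were called lost with a peak in 3 of 3 Control and 0 of 3 K27M libraries, retained with 3 and 3, and gained with 0 and 3. Of 20807 protein-coding autosomal genes, 310 (1.49%) were lost, 1285 (6.18%) were retained and 1 (0.00481%) was gained. A further 128 genes had a peak in 3 controls and 1 K27M library and 364 in 3 controls and 2 K27M libraries. By pair, 2155, 5130 and 6059 genes had a control peak, of which 60.5%, 47.2% and 35.3% had one in K27M, while 55, 18 and 17 genes had one in K27M alone. The lost class was set largely by Control 59. With Control 59 left out of the class, a choice made after seeing the data, 2147 genes (10.3%) were lost, 1327 retained and 1 gained.

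Genes placed in a class from 2 pairs mostly kept it in the pair that was not used. Among genes with a control peak in the remaining pair, 99.0%, 78.9% and 88.1% of those lost in the other pairs had no K27M peak in pairs 59, 60 and 61, against 21.5%, 0.70% and 0.31% of those retained in the other pairs. The mean difference was 81.2 percentage points (SD 5.71, n = 3 pairs, exact p = 0.25, adjusted 0.333). It sets 2 opposite classes against each other. Of all genes with a control peak, 852 of 2155, 2709 of 5130 and 3923 of 6059 had no K27M peak in pairs 59, 60 and 61.

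Lost promoters were poor in CpG. Their median density was 13.3 CpG per kb, against 24.4 for genes with 1 K27M peak, 27.4 for those with 2, 36.3 for retained genes and 23.5 for all genes, with the densest promoter window of each gene counted. In 13 of 310 the density was 40 or more. Without Control 59 in the class the lost median was 21. Lost promoters have no K27M peak over them by definition, and the nearest peak of K27M 59, 60 and 61 lay at a median of 357, 153 and 192 kb, with 22, 44 and 41 of the 310 within 10 kb.

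The 12 lost genes with the highest lowest-of-3 control fold enrichment were *Hagh*, *AW551984*, *Ftl1-ps1*, *Frmd4a*, *Zscan26*, *Vmn1r86*, *Rttn*, *Deptor*, *Abcd2*, *Rpp30*, *Vmn1r233* and *Olah*. *Hagh*, a glyoxalase-system hydrolase, had promoter peaks of fold enrichment 4.17, 4.89 and 4.48 in Control 59, 60 and 61. *Deptor*, an inhibitor of the mTOR kinase, had 3.29, 7.01 and 6.32. *Abcd2*, a peroxisomal transporter of long-chain fatty acids, had 3.29, 3.93 and 3.27. Lost promoters as a class had a median of 2.54, 2.99 and 2.90, and retained ones 2.71, 8.74 and 6.12. The 12 named are the most enriched of their class, and in Control 59 each of them, at 3.16 or more, was above the retained median. In Control 60 each was below the retained median, the highest being *Deptor* at 7.01. In Control 61 all but *Deptor*, at 6.32, were below it. *Hagh*, *Deptor*, *Abcd2* and *Rpp30*, an RNase P subunit, had H3K4me3 in all 6 libraries, while *Olah* and the pheromone receptors *Vmn1r86* and *Vmn1r233* had it in none.

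Chemosensory receptor genes made up 82 of the 310 lost genes, which are 1.49% of all genes. These receptors are expressed in sensory neurons of the nose, and their promoters are CpG-poor, with a median of 4.50 CpG per kb for olfactory and 4.25 for vomeronasal receptors. Both families hold near-identical copies, between which reads cannot always be told apart, so single members are uncertain. Of 1087 olfactory receptor genes 64 were lost and 0 retained. A promoter peak was present at 82, 215 and 311 of them in Control 59, 60 and 61 and at 0, 6 and 2 in K27M. *Olfr239*, for example, had peaks of fold enrichment 3.24, 2.98 and 3.44 in the controls. Of 326 vomeronasal receptor genes, which detect pheromones, 18 were lost and 0 retained, with a peak at 21, 35 and 51 in Control and 0, 1 and 0 in K27M. Over all genes a promoter peak was present at 10.4%, 24.7% and 29.1% in Control and at 6.53%, 11.7% and 10.3% in K27M. In the controls both receptor families were thus marked no more often than all genes. Without Control 59 in the class, 164 olfactory (15.1%) and 29 vomeronasal receptor genes (8.90%) were lost, against 10.3% of all genes. None of the 82 lost receptors had promoter H3K4me3 in a Control library. Of all 310 lost genes, 150 (48.4%) had H3K4me3 in no Control and 140 had it in all 3.

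Many developmental transcription factors were retained, against a share of 6.18% over all genes. That share also counts genes without a control peak. Of all genes with a peak in 3 controls, 1285 were retained, 364 and 128 had 2 and 1 K27M peaks, and 310 were lost. All 39 *Hox* genes, all 12 LIM homeobox genes and all 6 Iroquois genes were retained, as were 8 of 9 *Pax* genes, 19 of 22 midbrain and hindbrain patterning factors and 20 of 26 forebrain patterning factors. T-box factors (12 of 16), proneural factors (12 of 17), Gata and Hand factors (8 of 10) and forkhead factors (22 of 41) followed. Of 18 *Sox* genes 4 were retained and 11 had no peak in any of the 6 libraries. In these last 2 lists, 25 forkhead and 6 *Sox* genes had a peak in all 3 controls. Across these lists 1 gene was lost, *Tal2*, a basic helix-loop-helix factor with control fold enrichments of 2.62, 3.32 and 3.56. Values are given for the retained gene with the longest K27M peak in 3 of these lists. *Hand2*, which directs heart and limb development, had promoter fold enrichments of 6.40, 18.2 and 10.9 in Control 59, 60 and 61 and 11.7, 27.7 and 32.6 in K27M. *Foxa2*, of the floor plate and endoderm, had 6.03, 16.3 and 10.3 in Control and 10.9, 26.1 and 31.1 in K27M. *Isl1*, of motor neurons, had 5.99, 16.9 and 11.6 in Control and 11.5, 25.9 and 29.3 in K27M. For all 3 the K27M peak was the more enriched in every pair, but choice by K27M peak length is not independent of K27M enrichment. Of all 1285 retained genes, 76.1%, 46.8% and 77.5% were higher in K27M in pairs 59, 60 and 61.

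**Figure D3:**
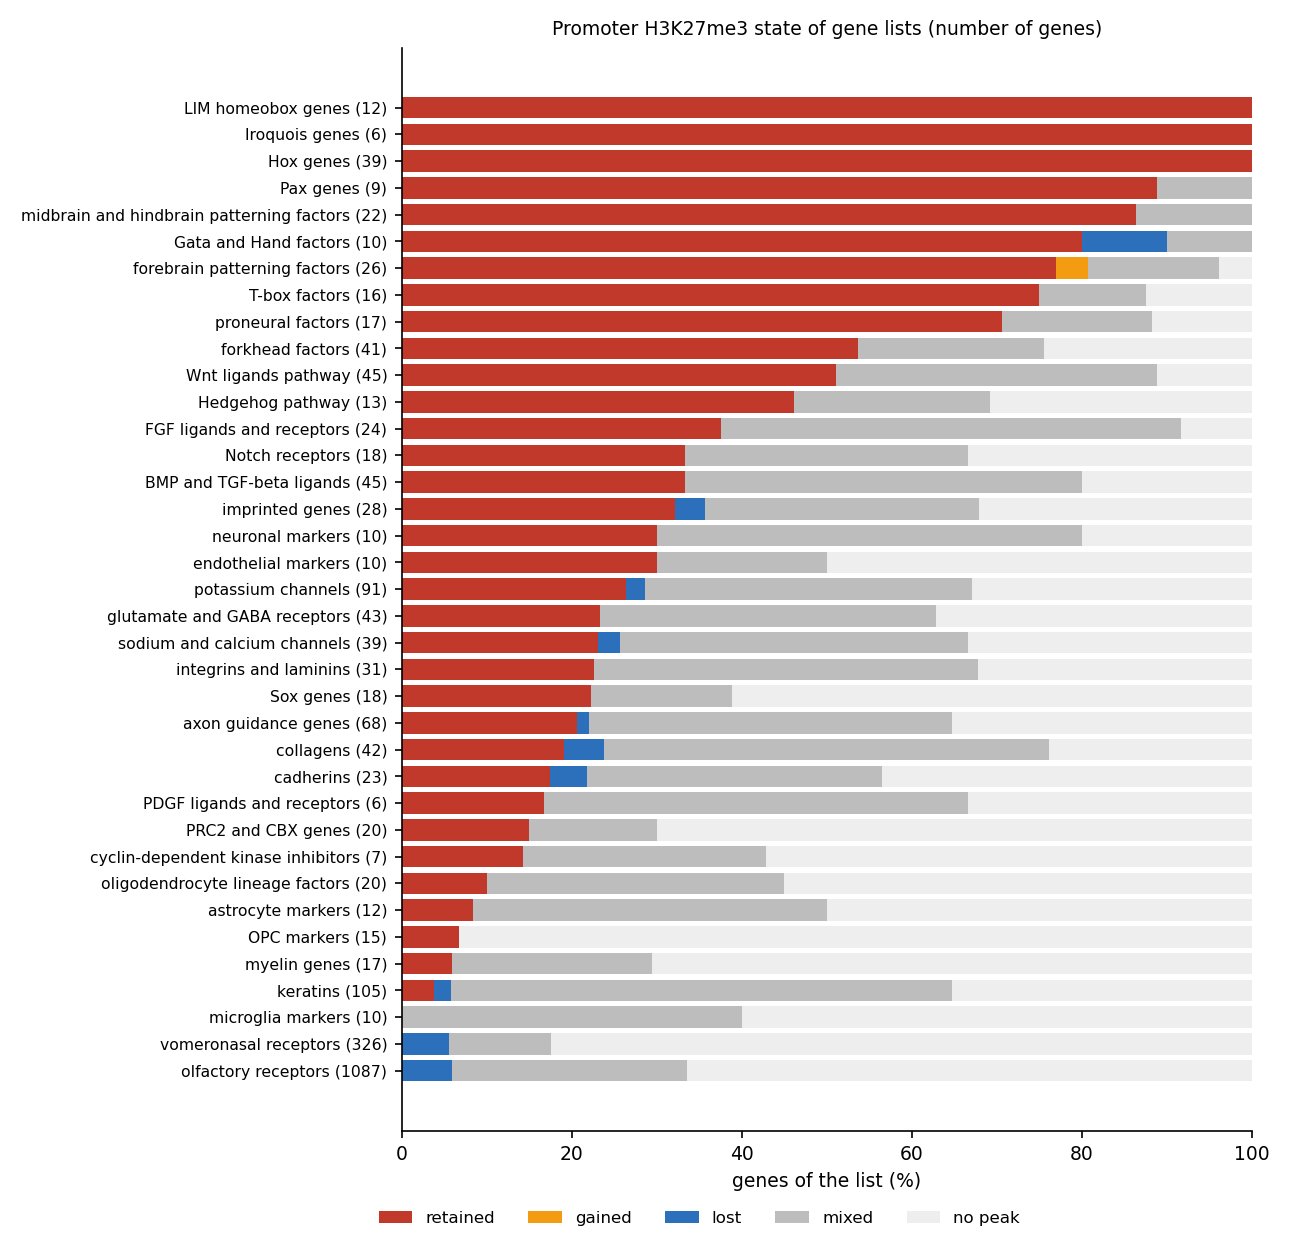
Share of the genes of each list (percent; number of genes in brackets) by promoter H3K27me3 class: retained (red), gained (orange), lost (blue), mixed (dark grey) or no peak in any of the 6 libraries (light grey). All Hox, LIM homeobox and Iroquois genes are retained, and the olfactory and vomeronasal receptors hold lost genes (64 and 18) and 0 retained genes.

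*Pax3*, of the dorsal neural tube, lay in a retained stretch of 88200 bp, with promoter fold enrichments of 6.20, 14.7 and 9.15 in Control and 9.79, 23.0 and 25.2 in K27M. In the brainstem its stretch was covered to 100% in Control 59, 8.94% in Control 61, and 4.53% and 7.63% in K27M. The difference between regions was not tested.

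The lists of signalling ligands and receptors held retained genes and, with Control 59 in the class, no lost ones. Over all genes 6.18% were retained and 1.49% lost, so 0 lost in lists of this size does not set them apart. Without Control 59 in the class, 4 Wnt, 9 BMP and TGF-beta, 3 FGF, 2 Notch and 2 Hedgehog genes were lost. These were 8.89%, 20.0%, 12.5%, 11.1% and 15.4%, against 10.3% of all genes. Among Wnt ligands, Frizzled receptors and antagonists 23 of 45 were retained and 0 lost, among BMP and TGF-beta genes 15 of 45 and 0, among FGF genes 9 of 24 and 0, among Notch genes 6 of 18 and 0, and among Hedgehog genes 6 of 13 and 0. *Lef1*, a nuclear effector of Wnt, had 3.36, 14.2 and 9.52 in Control and 7.32, 23.8 and 24.7 in K27M. *Bmp4*, a ligand that opposes oligodendrocyte differentiation, had 2.97, 8.42 and 7.53 in Control and 5.42, 16.4 and 18.0 in K27M. *Shh*, which patterns the ventral neural tube, had 2.03, 12.3 and 8.05 in Control and 4.96, 18.1 and 14.7 in K27M. *Dll4*, a Notch ligand, had 2.27, 9.54 and 4.97 in Control and 3.11, 8.05 and 9.20 in K27M, which was higher in K27M in pairs 59 and 61 and lower in pair 60.

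The lists below held 1 or 2 lost genes each. With 1.49% lost over all genes, counts this small do not set these lists below or above the other genes. *Epha3*, an ephrin receptor, was the 1 lost gene of 68 axon guidance genes, of which 14 were retained. Its control fold enrichments of 2.33, 2.25 and 2.52 were each below the median of the lost promoters. *Col8a1* and *Col4a3* were lost of 42 collagens (8 retained), *Kcnh7* and *Kcnh8* of 91 potassium channels (24 retained), *Scn1a* of 39 sodium and calcium channels (9 retained), *Cdh12* of 23 cadherins (4 retained), *Krtap3-3* and *Krt39* of 105 keratins and keratin-associated genes (4 retained) and *Magel2* of 28 imprinted genes (9 retained). *Magel2* had 2.97, 3.98 and 4.97 in the controls, with no peak in K27M, and lies in another lost stretch close to the longest one. By contrast *Igf2*, an imprinted growth factor, had 3.04, 15.2 and 9.17 in Control and 7.20, 18.6 and 20.5 in K27M. Without Control 59 in the class, 14 of 42 collagens, 27 of 105 keratins, 18 of 91 potassium channels, 12 of 68 axon guidance genes and 9 of 45 BMP and TGF-beta genes were lost. Against a share of 10.3% over all genes, these were 33.3%, 25.7%, 19.8%, 17.6% and 20.0%. The lists in this comparison were chosen after their values were seen, and each lay above that share. Others lay below it, among them integrins and laminins (9.68%), Wnt genes (8.89%) and imprinted genes (7.14%). The 9 BMP and TGF-beta genes were *Bmper*, *Bmpr1b*, *Fstl1*, *Inhbb*, *Lefty1*, *Smad7*, *Tgfb2*, *Tgfbr1* and *Tgfbr2*. No gene of the *Hox*, LIM, Iroquois, *Pax*, forebrain or midbrain and hindbrain lists was lost in that setting either.

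Peaks at the factors that make the oligodendrocyte lineage were no rarer than over all genes. Of 20, 11 had no peak in any of the 6 libraries, beside 14256 of all 20807 genes. Among the 11 were *Olig1*, *Olig2*, *Sox10*, *Sox2*, *Sox6*, *Sox8*, *Sox9*, *Hes5*, *Zfp488* and *Tcf7l2*. Of the 20 factors, 0 were lost and 2 were retained, beside 1.49% and 6.18% of all genes. *Nkx6-2*, a homeodomain factor of myelinating oligodendrocytes, had 3.36, 15.1 and 7.21 in Control and 7.17, 18.8 and 23.7 in K27M. *Sox17*, which promotes exit of OPCs from the cell cycle, had 5.54, 12.8 and 9.55 in Control and 8.96, 20.4 and 23.0 in K27M. Both were thus more enriched in K27M in each pair. *Sox5*, which holds back differentiation, had 2.75, 3.84 and 5.28 in Control, and in K27M a peak only in culture 61, of 3.39. *Prox1* and *Nkx2-2* had peaks in 2 libraries of each genotype, *Id4* in 2 Control and 1 K27M, and *Nfib*, *Id2* and *Myrf* in 1 Control and 0 K27M. Of 15 OPC markers, *C1ql1* was retained and the other 14 had no peak. Of 17 myelin genes *Mal* was retained and 0 were lost, although *Mbp* and *Mobp* entered the lost class when Control 59 was left out.

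Of 7 cyclin-dependent kinase inhibitors, which arrest the cell cycle, *Cdkn1c* was retained, with 1.91, 6.33 and 3.84 in Control and 2.97, 11.3 and 13.6 in K27M. *Cdkn2a* had 3.59 and 8.81 in Control 59 and 60, no peak in Control 61, and 7.90, 15.7 and 18.5 in K27M. *Cdkn1a* had a peak in 1 Control and 0 K27M libraries. *Cdkn1b*, *Cdkn2b*, *Cdkn2c* and *Cdkn2d* had none. In each of the 6 libraries 2 of the 7 had a peak.

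Among the Polycomb genes themselves 3 of 20 were retained and 0 lost. *Cbx8*, a subunit of the canonical PRC1 complex that reads H3K27me3, had 3.18, 16.8 and 6.41 in Control and 7.48, 17.3 and 24.7 in K27M. The others were *Cbx2*, also of PRC1, and *Epop*, an accessory protein of PRC2. Of the 43 glutamate and GABA receptor genes 10 were retained, and of 10 neuronal markers 3, *Nefl*, *Rbfox3* and *Stmn2*.

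At retained promoters the enrichment in K27M relative to Control was highest in the longest domains. Over the 1285 genes the median fold enrichment was 2.71, 8.74 and 6.12 in Control 59, 60 and 61 and 3.13, 7.87 and 8.34 in K27M, a median ratio per gene of 1.24, 0.966 and 1.42. Split by the shortest K27M peak over the promoter, the ratio was 1.02, 0.751 and 0.997 for the 483 genes with peaks under 2 kb. It was 1.33, 1.05 and 1.63 for the 559 genes with 2 to 10 kb and 1.94, 1.50 and 2.75 for the 243 with 10 kb or longer. In the longest class 239, 230 and 240 of the 243 genes were higher in K27M. All 39 *Hox* genes were higher in K27M in every pair, with medians of 5.18, 18.98 and 11.6 in Control and 10.7, 27.2 and 31.8 in K27M. Fold enrichment is scaled to the depth of each library, so a higher value is a larger share of that library's signal and not more H3K27me3 per cell. The classes use K27M peak length, which is not independent of K27M enrichment, and the split carries no test.

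**Figure D4:**
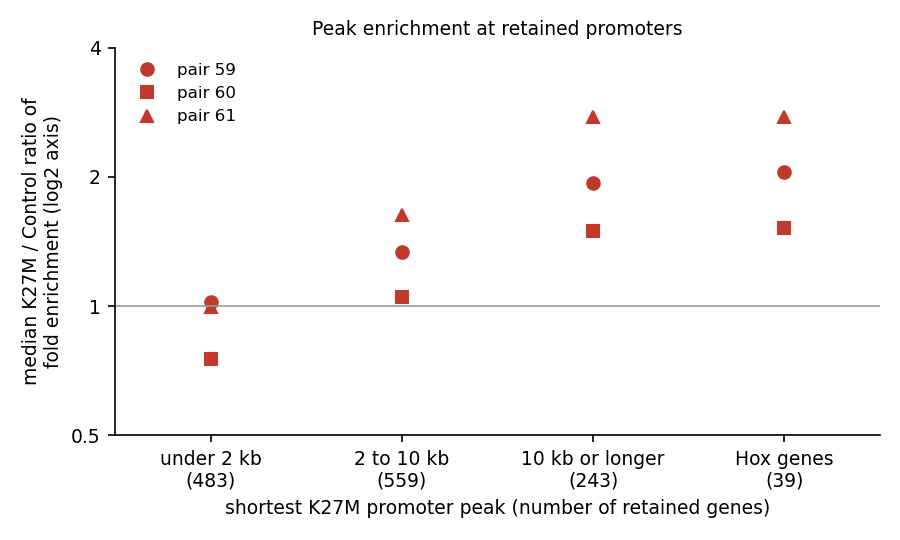
Median ratio of K27M to Control fold enrichment at retained promoters (log2 axis; 1 symbol a pair) by the shortest of the 3 K27M peaks over the promoter, with the Hox genes apart; numbers of genes in brackets. The ratio is 0.751 to 1.02 for peaks under 2 kb and 1.50 to 2.75 for peaks of 10 kb or longer.

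H3K4me3, which took no part in the classes, differed little at lost genes. A promoter H3K4me3 peak was present at 45.8%, 50.0% and 49.4% of the lost genes in Control 59, 60 and 61 and at 48.1%, 50.0% and 50.6% in K27M (mean difference 1.18 percentage points, SD 1.13, n = 3 pairs, exact p = 0.5, adjusted 0.5). Without pair 59 it was −2.12. The groups overlapped. At all genes the shares were 59.8%, 66.1% and 66.3% in Control and 61.5%, 64.7% and 65.1% in K27M.

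At retained genes H3K4me3 was present at 52.4%, 92.8% and 93.5% in Control and 60.8%, 81.6% and 83.1% in K27M. The pair differences of 8.40, −11.2 and −10.4 percentage points went both ways (mean −4.38, SD 11.1, n = 3 pairs, exact p = 0.5, adjusted 0.5). H3K4me3 reads differed between these libraries, from 43600166 to 123930938 in Control and from 40797208 to 113204650 in K27M, and 74.5% and 42.0% of those of Control 60 and 61 were duplicates against 25.1% and 28.6% in K27M 60 and 61. Their part in the difference was not tested. In pairs 60 and 61, 148 and 140 retained genes had H3K4me3 in Control alone and 4 and 7 in K27M alone. In pair 59 these counts were 17 and 125, the opposite way. Of retained genes with H3K4me3 in Control, 2.53%, 12.4% and 11.7% had none in K27M, beside 0.37%, 3.18% and 2.72% of all genes with it.

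The retained genes with H3K4me3 in Control alone had long K27M H3K27me3 peaks, of a median 20724.5 and 18274.5 bp in pairs 60 and 61, against 4704.5 and 4204 bp where both genotypes had H3K4me3. *Hox* genes were prominent among them. H3K4me3 was present at 2, 29 and 29 of the 39 in Control 59, 60 and 61 and at 2, 5 and 6 in K27M. Of 12 retained T-box genes 2, 12 and 12 had it in Control and 1, 7 and 8 in K27M, and of 22 retained forkhead genes 8, 21 and 21 in Control and 5, 16 and 16 in K27M. *Foxa2*, *Pax3*, *Pax7*, *Nkx2-1*, *Neurod2* and *Sox17* each had H3K4me3 in 2 of 3 Control and 0 of 3 K27M libraries. Pathway and channel genes differed less, with 13, 23 and 22 of 23 retained Wnt genes in Control and 16, 21 and 20 in K27M, and 14, 24 and 24 of 24 retained potassium channels in Control and 18, 22 and 23 in K27M. The 6 retained Iroquois genes had the same counts in both genotypes, at 5, 6 and 6.

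**Figure D5:**
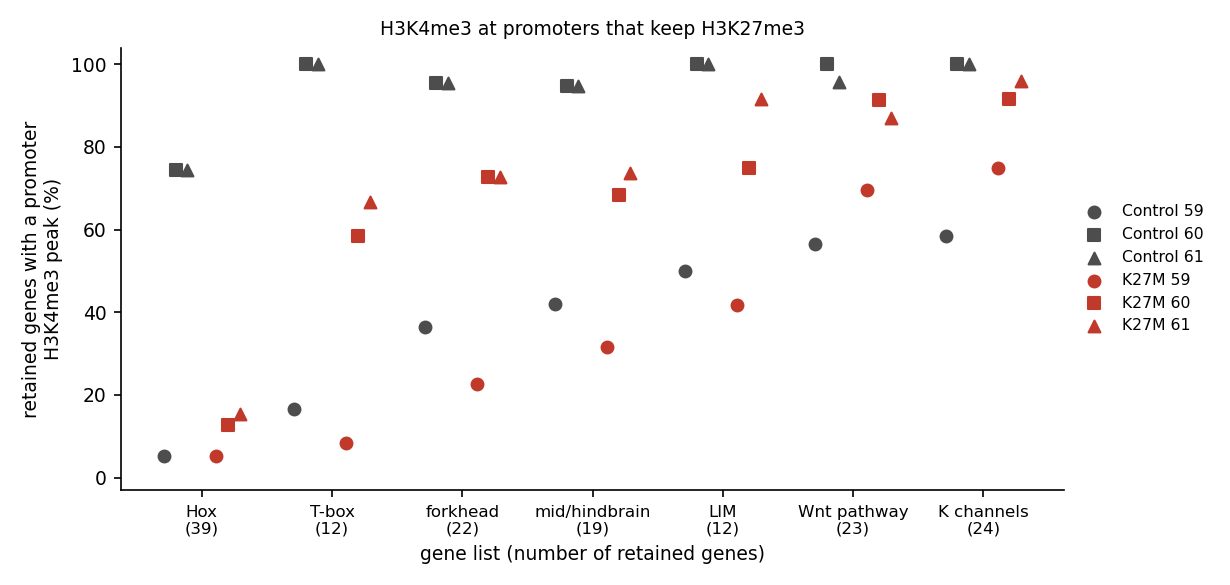
Share of the retained genes of 7 lists (percent; number of retained genes in brackets) with a promoter H3K4me3 peak in each library, Control grey and K27M red, with circles, squares and triangles for cultures 59, 60 and 61. For Hox genes Control 60 and 61 stand for 29 of 39 genes each and K27M 60 and 61 for 5 and 6, while culture 59 stands for 2 in both genotypes.

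The 1 gained gene was *Nr2f1*, which encodes COUP-TFI, a nuclear receptor that patterns the cortex. The stretch under a peak in all 3 K27M and no Control library (chr13:78182543-78196779, 14237 bp) had fold enrichments of 5.02, 7.51 and 7.82 in K27M 59, 60 and 61. The K27M peaks that hold it were 29394, 43907 and 44377 bp long. Controls marked the neighbourhood in part, since Control 59 and 60 covered 33.1% and 45.7% of the K27M 59 peak and Control 61 covered 0%. The promoter had H3K4me3 in all 6 libraries and a density of 62.5 CpG per kb. In the brainstem no library had a promoter peak at *Nr2f1*, and 89 bp of the stretch were covered in Control 59. Its paralogue *Nr2f2*, by contrast, was retained, with 4.77, 14.0 and 10.1 in Control and 9.17, 21.6 and 25.5 in K27M.

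The other gained stretches were short. The second (chr13:21991696-21994728, 3033 bp) had 6.54, 13.1 and 15.2 in K27M and no Control peak, with *Pom121l2* as the nearest gene start, 10176 bp away. It was under a peak in brainstem Control 61 and in both brainstem K27M libraries, and so was not particular to K27M. The third (chr13:78207824-78210810, 2987 bp) lies upstream of *Nr2f1*. With stricter peaks (−log10 q or fold enrichment of at least 3), *Bmpr2*, a BMP receptor, and *Cnpy1* were gained too, both named after their values were seen. At the main setting Control 60 had a promoter peak at both, so they entered the class because the stricter settings dropped that control peak.

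In the brainstem, whose libraries took no part in the classes, the telencephalon classes recurred in large part. Of the 1285 retained genes, 1264 had a promoter peak in both brainstem controls, and 1250 of these (98.9%) had one in both brainstem K27M libraries. Of the 310 lost genes, 233 had a peak in both brainstem controls. Of these, 166 (71.2%) had none in brainstem K27M and 20 had one in both. Without telencephalon Control 59 in the class, 891 lost genes had a peak in both brainstem controls and 708 (79.5%) had none in brainstem K27M. Over all genes with a peak in both brainstem controls, 31.6% had none in brainstem K27M and 57.9% had one in both.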

How the data were processed

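H3K27me3 peak lists of 3 Control and 3 K27M telencephalon OPC cultures were analysed, with telencephalon H3K4me3 and brainstem H3K27me3 lists beside them. Groups and culture numbers came from the labels. The authors processed reads with the nf-core ChIP-seq pipeline (2.0.0), aligned them to mm10 with BWA (0.7.17-r1188), dropped reads in blacklisted regions and used MACS2 (2.2.7.1) with the matching input to call peaks in each library, broad for H3K27me3, without pooling. The deposited lists give p- and q-values as −log10, a ratio (the fold enrichment over input) and an integer score, which was not used. They hold no read counts, so read totals came from the study's own list of libraries.

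Peaks were merged per library on the 19 autosomes, and overlaps were taken with scripts in Python (3.11.15) and numpy (2.4.6). Bins were 1 kb, covered at 500 bp or more. Promoters came from GENCODE M21 on the same assembly, whereas the study used M25, with at least 1 bp of overlap. The interval and class functions were tested on simulated data, where 0 of 2000 interval queries were wrong. K27M and Control were compared by matched culture, as the study's methods do, with the sign-flip permutation test over 8 arrangements. To check that cultures pair the libraries, deviations of promoter H3K27me3 presence from the group means correlated between the 2 libraries of a culture with r = 0.26, 0.20 and 0.01 in cultures 59, 60 and 61, across genes, which are not independent replicates.

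The members and the 37 gene lists were chosen with earlier results of these data known. The text names the 12 lost genes with the highest lowest-of-3 control fold enrichment, the 12 gained genes with the highest lowest-of-3 K27M fold enrichment, the 12 retained genes with the longest lowest-of-3 K27M peak, up to 4 members of each class per list in that order, all members of the lists of lineage factors, OPC markers and kinase inhibitors, and the 3 longest stretches of each class. Names outside this rule were chosen after their values were seen. Beyond those said in place, these are the cell type markers, which were listed as markers, and the genes that became lost without Control 59. Some genes covered by the rule are not reported here. Alternatives were stricter peaks, other bins and promoter windows, the X chromosome, no CpG standardisation, unpaired tests and each culture left out. Inputs, other assays and signal tracks were not used here.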

Additional observations from a re-analysis of the deposited data

How the results depend on the processing

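Over 15 results and 13 settings, 106 alternatives were computed, of which 89 kept their direction and their side of the threshold or, for counts, stayed within 1.5 times. No test could pass the threshold, and some of the 89 values moved far: H3K4me3 at retained genes (−4.38) ran from −16.3 at fold enrichment of at least 3 to −0.97 without culture 60, H3K4me3 at lost genes (1.18) reached 2.70 at fold enrichment of at least 3, domain length (0.67) was 0.30 at −log10 q of at least 3, and the K27M-only share (−9.77) was −4.95 without culture 59. Depth and enrichment limit a peak list, and Control 59 limits the lost class. Genes lost numbered 123 at −log10 q of at least 3, 37 at fold enrichment of at least 3, 174 with promoters of 500 bp on either side and 2147 with Control 59 out of the classes, which was added after the data were seen. Of the 310, 58, 21 and 154 stayed lost in the first 3. Genes retained numbered 417 at fold enrichment of at least 3, and genes gained 3 under both stricter peak settings. With 1 culture left out in turn, genes lost ranged from 378 to 2151, retained from 1291 to 2022 and gained from 1 to 4, the share at equal length from −9.10 to 13.5 and H3K4me3 at lost genes from −2.12 to 1.93 percentage points. The highest counts of lost and retained genes and the negative ends of both shares came without culture 59. Signs turned for domain length at fold enrichment of at least 3 (−0.0064), for the share at equal length with the X chromosome (−4.15), and for the H3K4me3 difference with any overlap (1.11) or without standardisation (30.2). The cause was not tested. Without the pairing by culture (an exact permutation over 20 splits, smallest p 0.1), covered length (−1.72) and domain length (0.67) had p = 0.1, and H3K4me3 at lost (1.18) and retained genes (−4.38) had p = 0.6, so it changed no call. For the other results each value belongs to a pair and no unpaired fit could be made.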

Other observations

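On the X chromosome H3K27me3 peaks covered 0.295, 24.7 and 46.1 Mb in Control 59, 60 and 61 and 0.823, 18.4 and 2.08 Mb in K27M. This was 1.11% to 30.3% of the length under peaks in Control and 6.19% to 44.5% in K27M, so the genotypes overlapped and the libraries of culture 59 and K27M 61 were low.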
